A study of Homo sapiens with 48 samples.

Results

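The mitochondrial ribosomal protein genes are the nuclear genes whose symbols begin with MRPL, for the large subunit, or MRPS, for the small subunit, followed by a number and at most 1 letter. This naming rule picked 78 of the 19923 protein-coding gene names counted, 49 of them MRPL and 29 MRPS. The rule uses no measured value, but it was chosen with earlier results of these data known. For the classes below, 51 were counted with the large subunit, MRPS18A and MRPS30 among them since they sit there despite their names, and 27 with the small subunit by symbol. MRPS36, 1 of the 27, is also known as KGD4 and described as a part of the 2-oxoglutarate dehydrogenase complex rather than of the ribosome. The cells were Kelly and NGP, human neuroblastoma lines with MYCN amplification and, per the labels, wild-type genotype. They were grown for 3 or 6 days with 8 µM STM2457, which inhibits the RNA methyltransferase METTL3, or with its solvent DMSO. Cells then received actinomycin D, a blocker of transcription, at 10 µg/ml for 3 or 6 h, or none of it (0 h). Poly(A) RNA was sequenced from 48 libraries in 24 groups of 2. Each line is a single established culture model without its tumour surroundings, and all groups were kept in serum-containing medium. The labels do not say that the 2 libraries of a group came from separate cultures, so p-values measure only the spread between these libraries.

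Mitochondrial ribosomes translate the small set of respiratory chain subunits that mitochondrial DNA encodes. Their RNA is made in the organelle, whereas every one of their proteins is encoded in the nucleus, translated in the cytosol and imported. The particle descends from a bacterial ribosome. Of the 78 members, 46 were counted as having a bacterial counterpart. The other 32, MRPS36 and MRPL47 included, were counted as mitochondria-specific. METTL3 places N6-methyladenosine on messenger RNA, mostly at adenosines within a DRACH context such as GGACT, and this mark is known for shortening the life of many transcripts. After actinomycin D no new mRNA is made, so the level left at 6 h relative to other transcripts reflects how long a messenger lasts.

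The libraries held 11139550 to 21942238 fragments in genes, with a median of 15933684. The members together took 36547 to 76028 of these fragments, or 0.304 to 0.402% in Kelly and 0.285 to 0.391% in NGP. Members with few counts, such as MRPS24, MRPL23 and MRPS17, had correspondingly wide errors. MRPL53 had 0 counts in all 48 libraries, and 72.9% of its exon bases are shared with other genes. The remaining 77 passed the filter on low counts in both lines, in fits of 16759 genes in Kelly and 14661 in NGP. Of 10 adrenergic neuroblastoma markers, 10 in Kelly and 9 in NGP reached a median of 1 CPM, the count scaled to the library's size; the exception was TH in NGP, with a median of 0.51 CPM. Of 15 markers of fibroblasts, leukocytes, endothelium and epithelium, 3 in Kelly and 5 in NGP did so. In Kelly these were COL1A1 at a median of 13.6 CPM, CD68 at 3.61 and VWF at 2.45. In NGP they were COL1A1 at 74.8, COL3A1 at 22.7, CD68 at 4.52, LUM at 2.65 and EPCAM at 2.15 CPM. PTPRC, CD3E, PECAM1, KRT5 and DCN had medians of 0 in both lines.

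In untreated-control cells (DMSO, 0 h of actinomycin D, 4 libraries per line over both durations), the members were expressed above most genes. Per length of all annotated exons of a gene, the median member stood at 13.96 FPKM in Kelly and 14.5 FPKM in NGP, against 2.80 and 2.70 FPKM for all genes. The median member exceeded 84.1% of genes in Kelly and 84.3% in NGP. Single members spanned 0.675 to 74.2 FPKM in Kelly and 0.275 to 77.8 FPKM in NGP.

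In Kelly the highest FPKM was that of MRPL51, a mitochondria-specific large-subunit protein, at 74.2 ± 12.4 (SD, n = 4). It was followed by MRPL41, likewise mitochondria-specific, at 69.8 ± 14.9, and by MRPL3, a large-subunit core protein with a bacterial counterpart, at 57.9 ± 4.16 (SD, n = 4). The small-subunit proteins MRPS34 and MRPS26, both mitochondria-specific, came next at 56.3 ± 8.93 and 53.4 ± 4.38 FPKM. Neighbours in this order lay within the larger SD of the pair, though MRPL41 exceeded MRPL3 by more than the SD of MRPL3. In NGP, MRPS34 led at 77.8 ± 10.7 FPKM (SD, n = 4), ahead of MRPL24 at 59.7 ± 7.19 by more than either SD, and MRPS26 followed at 55.7 ± 9.29. MRPS21, the small counterpart of bacterial S21, had 42.0 ± 3.06 FPKM and MRPL3 had 38.8 ± 3.37. The lowest were MRPL38, MRPL23 and MRPS24 in Kelly, at 1.98, 1.63 and 0.675 FPKM, and MRPS17, MRPS24 and MRPL23 in NGP, at 1.36, 1.17 and 0.275 FPKM. MRPL38, MRPS17 and MRPS24 share 37.5, 25 and 23.3% of their exon bases with another gene, so reads there could be split or lost in counting.

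**Figure D1:**
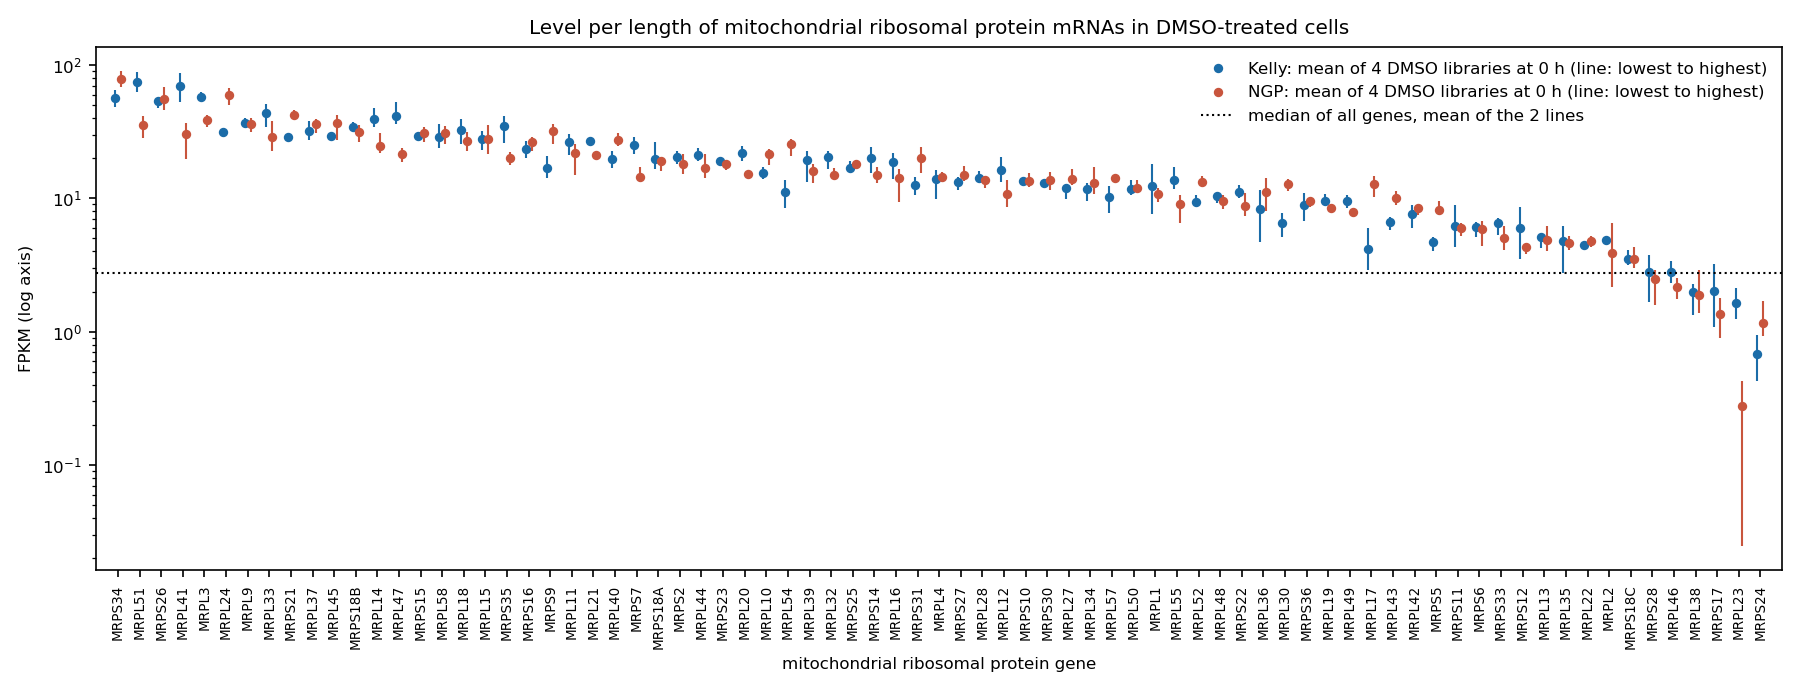
FPKM (log axis) of each of the 77 tested members at 0 h in DMSO; points are means of 4 libraries of Kelly (blue) or NGP (red), lines run from the lowest to the highest library, and the dotted line is the median of all genes. Nearly all members lie above that line in both lines, and MRPL23 in NGP is the lowest, with a mean of 0.275 FPKM and 0.0247 FPKM in its lowest library.

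The members are scattered over the genome but tend to sit beside a gene that starts on the opposite strand. In the annotation of GRCh38, 28 of 78 members (35.9%) had an opposite-strand start within 1000 bp, against 2624 of 19905 protein-coding genes (13.18%). MRPL46 and MRPS11, 1 protein of each subunit, form such a pair with each other on chromosome 15, with annotated starts 63 bp apart. MRPL27 starts 13 bp from EME1, which encodes a DNA repair nuclease subunit.

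RefSeq promoter windows, from 250 bases before to 50 after the start (GRCh38.p14), matched 69 of the 78 members by symbol. Motif letters were searched on both strands, and none of the motifs contains another. The ETS core CGGAAG was present in 37 of 69 member windows (53.6%) and in 25.8% of 15045 windows of all counted genes. The YY1 motif AAGATGG was present in 23 (33.3%) against 6.47%, and the NRF1 core TGCGCA in 14 (20.3%) against 10.8%. The E-box CACGTG, which MYCN can bind, was present in 6 (8.7%) against 8.89%. A match describes the letters of the window and is not evidence of binding. Median GC content was 60.3% in the members' windows and 63.0% in all.

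Of the windows below, MRPS6, MRPS2, MRPL33, MRPL37 and MRPL41 are shown because they had the largest STM2457 rise at 0 h (MRPS6) or were called in more than 1 STM2457 comparison, and MRPL46 and MRPS11 because they share their start region; MRPS11 was chosen after its values were seen. Letters run 5′ to 3′ on the gene's own strand, and capitals mark motif matches. MRPS6 (chr21:34073328-34073627, plus strand) holds 1 NRF1 core. MRPS2 (chr9:135500432-135500731, plus strand), MRPL33 (chr2:27771469-27771768, plus) and MRPL41 (chr9:137551629-137551928, plus) each hold 1 ETS core. MRPL37 (chr1:54199917-54200216, plus) holds 1 E-box, MRPL46 (chr15:88467339-88467638, minus) holds 1 YY1 motif, and MRPS11 (chr15:88467458-88467757, plus) holds none of the motifs searched. The distance between MRPL46 and MRPS11 above uses an annotated MRPS11 start at 88467453. The MRPS11 window begins past that start and does not hold it.
MRPS6: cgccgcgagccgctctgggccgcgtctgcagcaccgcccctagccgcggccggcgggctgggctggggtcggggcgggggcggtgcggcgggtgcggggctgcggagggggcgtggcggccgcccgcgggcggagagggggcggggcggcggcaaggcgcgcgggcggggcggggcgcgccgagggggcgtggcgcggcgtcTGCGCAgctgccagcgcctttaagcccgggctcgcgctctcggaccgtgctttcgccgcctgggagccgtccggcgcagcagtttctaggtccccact
MRPS2: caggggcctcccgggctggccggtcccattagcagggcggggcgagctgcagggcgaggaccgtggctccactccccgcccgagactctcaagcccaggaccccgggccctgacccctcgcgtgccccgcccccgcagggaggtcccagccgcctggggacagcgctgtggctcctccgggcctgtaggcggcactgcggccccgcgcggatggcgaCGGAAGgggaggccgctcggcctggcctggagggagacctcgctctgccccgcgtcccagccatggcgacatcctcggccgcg
MRPL33: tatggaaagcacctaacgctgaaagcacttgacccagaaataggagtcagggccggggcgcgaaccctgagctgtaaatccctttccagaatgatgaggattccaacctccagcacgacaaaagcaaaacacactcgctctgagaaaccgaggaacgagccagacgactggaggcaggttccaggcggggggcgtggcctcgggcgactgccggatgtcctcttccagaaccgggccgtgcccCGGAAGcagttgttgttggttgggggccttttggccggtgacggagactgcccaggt
MRPL37: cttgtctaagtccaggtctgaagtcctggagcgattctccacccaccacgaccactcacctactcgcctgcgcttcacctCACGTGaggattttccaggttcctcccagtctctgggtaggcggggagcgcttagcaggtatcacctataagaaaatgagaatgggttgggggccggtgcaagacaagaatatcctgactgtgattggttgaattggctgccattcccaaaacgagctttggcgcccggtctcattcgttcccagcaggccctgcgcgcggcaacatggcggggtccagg
MRPL41: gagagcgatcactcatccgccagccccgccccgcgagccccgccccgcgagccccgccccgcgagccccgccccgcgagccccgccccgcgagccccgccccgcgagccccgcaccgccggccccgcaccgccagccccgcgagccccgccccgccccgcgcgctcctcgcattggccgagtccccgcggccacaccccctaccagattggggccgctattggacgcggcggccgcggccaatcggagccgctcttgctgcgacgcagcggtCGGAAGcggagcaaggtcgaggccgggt
MRPL46: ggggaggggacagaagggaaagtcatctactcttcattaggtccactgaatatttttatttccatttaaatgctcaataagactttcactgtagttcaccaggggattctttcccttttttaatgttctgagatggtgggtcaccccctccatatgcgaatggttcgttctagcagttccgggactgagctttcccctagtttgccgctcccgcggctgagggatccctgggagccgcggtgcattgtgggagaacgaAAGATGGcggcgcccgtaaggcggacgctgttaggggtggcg
MRPS11: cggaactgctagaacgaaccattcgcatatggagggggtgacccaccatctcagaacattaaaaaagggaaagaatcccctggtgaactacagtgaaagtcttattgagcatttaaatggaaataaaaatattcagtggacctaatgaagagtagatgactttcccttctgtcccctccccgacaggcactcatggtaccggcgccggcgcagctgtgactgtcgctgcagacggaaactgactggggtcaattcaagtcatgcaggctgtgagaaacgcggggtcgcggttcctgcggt

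At 0 h of actinomycin D, few members differed between STM2457 and DMSO, and those called with TMM scaling in edgeR were higher with the inhibitor. By this test (quasi-likelihood, Benjamini-Hochberg adjustment over all genes), 1 of 77 members (1.3%) rose in Kelly at 3 days and 5 (6.49%) rose at 6 days. In NGP 0 members changed at 3 days and 6 (7.79%) rose at 6 days. The background, the share of all genes called in either direction, was 1.69% in Kelly at 3 days, with 0.585% raised and 1.1% reduced. For Kelly at 6 days it was 3.97%, with 2.7% raised and 1.26% reduced. The NGP background was 3.7% at 3 days (1.25% raised, 2.45% reduced) and 7.99% at 6 days (4.45% raised, 3.55% reduced). For NGP at 3 days, 6 members had an unadjusted p under 0.05, which was not counted over all genes, and the smallest edgeR adjusted p was 0.115. DESeq2 called 0 members there, with no adjusted p for 4 members, and of all 14661 genes 292 higher and 608 lower.

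Other settings also called members lower in Kelly. On ERCC spike-in scaling, 20 members were called higher and 0 lower in Kelly at 3 days, but 0 higher and 2 lower at 6 days, MRPL42 (-0.57, SE 0.11; edgeR adjusted p = 0.000143) and MRPS9 (-0.79, SE 0.25; adjusted p = 0.0321). In NGP that scaling called 1 higher at 3 days and 4 higher at 6 days, and 0 lower at both. Of all 16759 genes in Kelly it called 3694 higher and 33 lower at 3 days, and 99 and 1071 at 6 days. Of all 14661 genes in NGP it called 418 higher and 138 lower at 3 days, and 462 and 580 at 6 days. DESeq2 called 3 higher and 1 lower in Kelly at 3 days, and 7 higher and 1 lower at 6 days; the lower members were MRPL1 (-0.67, DESeq2 adjusted p = 0.0336) and MRPL42 (-0.335, DESeq2 adjusted p = 0.0153). For NGP at 6 days DESeq2 called 7 higher and 0 lower. Over all genes it called 183 higher and 374 lower in Kelly at 3 days, and 568 and 340 at 6 days. In NGP at 6 days it called 845 higher and 678 lower.

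The family as a whole stayed near the typical gene. For Kelly the median member change on the log2 scale was -0.03 at 3 days and 0.02 at 6 days, and for NGP 0.01 and 0.09, against 0.00, 0.00, 0.00 and 0.02 for all genes tested. Summed over members, Kelly cells at 6 days had 3271 and 3332 CPM in the DMSO libraries and 3523 and 3433 CPM in the STM2457 libraries. NGP cells at 6 days had 3229 and 3209 CPM with DMSO and 3443 and 3496 CPM with STM2457. The treatment groups did not overlap at 6 days in either line. At 3 days the sums were 3711 and 3726 against 3669 and 3773 CPM in Kelly, which overlap, and 3452 and 3439 against 3484 and 3480 CPM in NGP, which do not but lie close together. In bulk RNA, fewer cells with a messenger and less of it per cell cannot be told apart. Large-subunit members gave 1, 3, 0 and 4 of the calls among 50 tested, and small-subunit members 0, 2, 0 and 2 among 27, in the order Kelly 3 and 6 days, NGP 3 and 6 days. The calls fell on 9 different members, and none was called in 3 or more of the 4 comparisons. 16 members lay above 0 in all 4 comparisons and 12 lay below 0 in all 4. The same signs were not counted over all genes, so these counts cannot be set against a background.

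**Figure D2:**
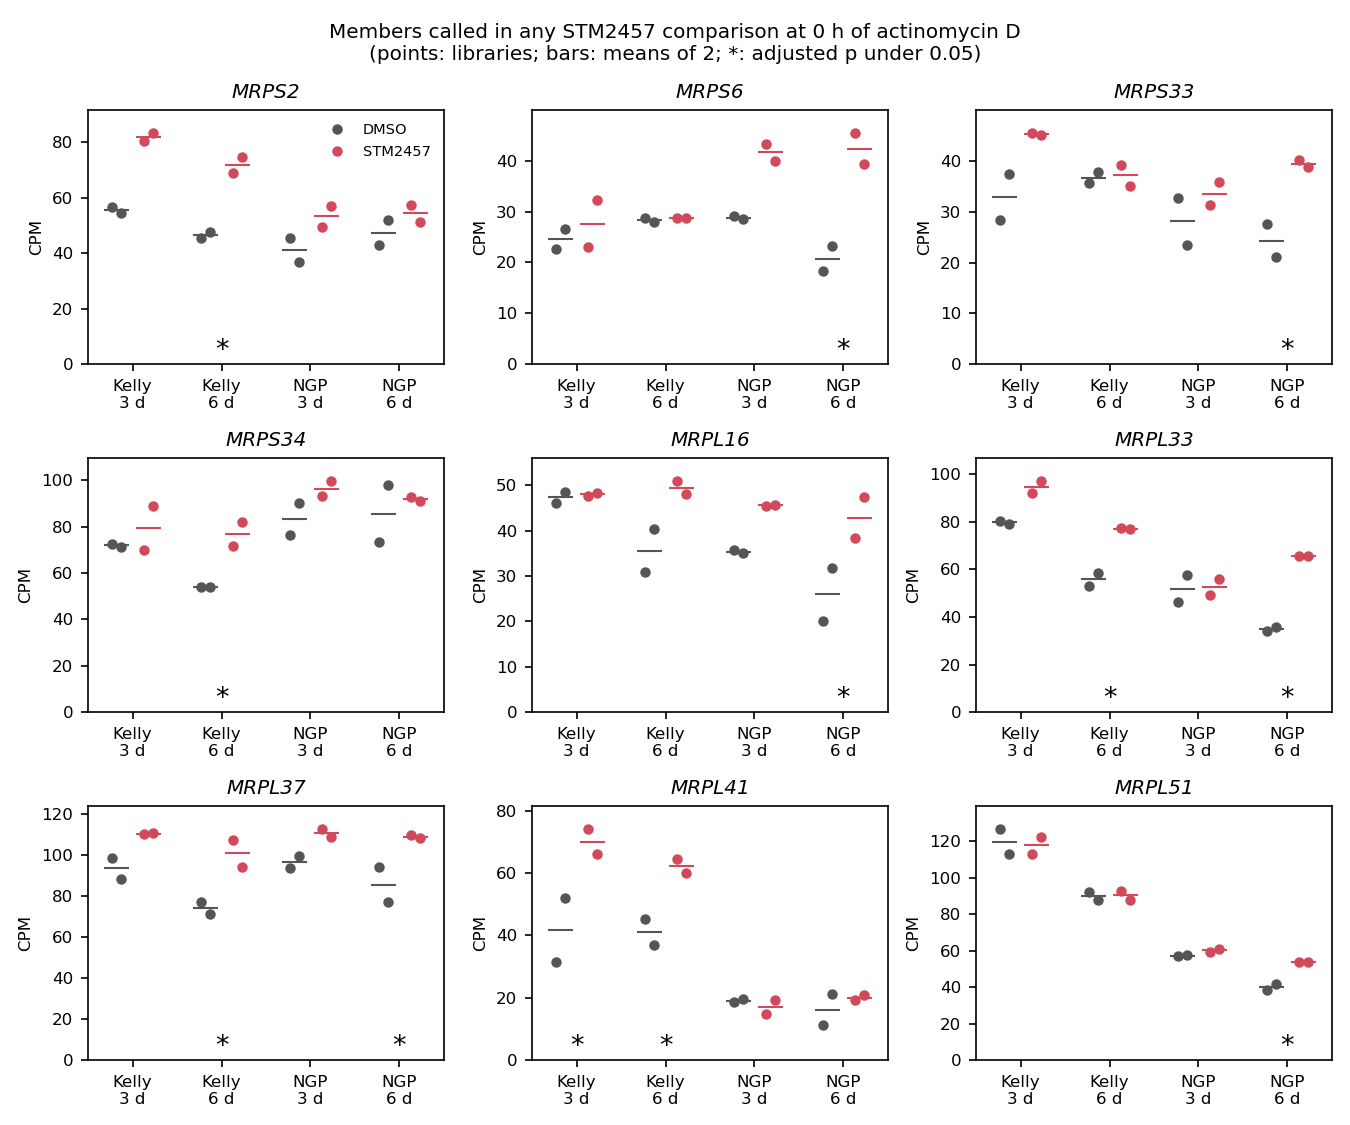
CPM of the 9 members called in any STM2457 comparison at 0 h of actinomycin D, by line and duration; points are single libraries (DMSO grey, STM2457 red), bars are means of 2, and asterisks mark comparisons with an adjusted p under 0.05. MRPS6 in NGP at 6 days runs from 18.3 and 23.3 CPM in DMSO to 45.4 and 39.4 CPM in STM2457, and MRPL33 from 34.2 and 35.98 to 65.6 and 65.6 CPM.

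Among the small-subunit proteins, MRPS6, the counterpart of bacterial S6 on the platform of the subunit (chromosome 21, 34073224 to 34143034), showed the largest called rise. In NGP at 6 days it had 18.3 and 23.3 CPM with DMSO and 45.4 and 39.4 CPM with STM2457. The treated libraries were both well above the controls, a log2 difference of 1.03 (SE 0.20) with an adjusted p of 6.95e-05 (edgeR, Benjamini-Hochberg). At 3 days NGP cells had 29.1 and 28.5 CPM against 43.3 and 40.0 CPM, again without overlap, but the difference of 0.53 (SE 0.20) was not called (adjusted p = 0.135). In Kelly at 6 days the values were 28.7 and 27.9 against 28.8 and 28.6 CPM, a difference of 0.02 (SE 0.24).

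MRPS2, the counterpart of bacterial S2 (chromosome 9, 135499984 to 135504673), was the leading small-subunit gene in Kelly. At 6 days it had 45.4 and 47.7 CPM with DMSO and 69.1 and 74.6 CPM with STM2457, a rise of 0.63 (SE 0.18; edgeR adjusted p = 0.0177, Benjamini-Hochberg). At 3 days it had 56.7 and 54.4 against 80.5 and 83.2 CPM. Those groups do not overlap either, yet the difference of 0.56 (SE 0.18) was not called (adjusted p = 0.0886). In NGP the 6-day libraries overlapped, at 43.1 and 51.9 against 57.6 and 51.1 CPM.

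MRPS34, a mitochondria-specific protein needed for small-subunit stability, had 54.0 and 53.9 CPM with DMSO and 71.7 and 82.2 CPM with STM2457 in Kelly at 6 days. It rose by 0.51 (SE 0.14; edgeR adjusted p = 0.0144), and 31.5% of its exon bases overlap EME2 on the other strand. MRPS33, also mitochondria-specific, had 27.5 and 21.0 against 40.1 and 38.8 CPM in NGP at 6 days and rose by 0.70 (SE 0.21; edgeR adjusted p = 0.0212). In both cases all treated libraries were above all controls. The strand setting of the counting is not stated, so reads of MRPS34 and its neighbour cannot be told apart.

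Among the large-subunit proteins, MRPL33 was called in both lines at 6 days. MRPL33 is the small counterpart of bacterial L33 (chromosome 2, 27771717 to 27988087), and 21.2% of its exon bases overlap BABAM2. In NGP it had 34.2 and 35.98 CPM with DMSO and 65.6 and 65.6 CPM with STM2457, a rise of 0.90 (SE 0.15; edgeR adjusted p = 2.01e-06). In Kelly it had 52.9 and 58.7 against 77.3 and 76.9 CPM, a rise of 0.47 (SE 0.13; edgeR adjusted p = 0.02). The groups were apart in both lines. At 3 days the NGP libraries overlapped, at 46.2 and 57.7 against 49.3 and 56.1 CPM, and Kelly had 80.5 and 79.2 against 92.2 and 97.1 CPM without a call (0.25, SE 0.13, adjusted p = 0.628).

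MRPL37, a mitochondria-specific protein (chromosome 1, 54184041 to 54225464), was the other member called in both lines at 6 days. In Kelly it had 77.1 and 71.1 CPM with DMSO and 107 and 93.9 CPM with STM2457, a rise of 0.44 (SE 0.12; edgeR adjusted p = 0.0121). In NGP it had 93.9 and 77.04 against 109.8 and 108 CPM, a rise of 0.35 (SE 0.11; edgeR adjusted p = 0.0383). The treated libraries lay above the controls in each line.

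MRPL41, mitochondria-specific and also described outside the ribosome as an apoptosis-linked protein (chromosome 9, 137551879 to 137552555), was the 1 member called at 3 days. In Kelly it had 31.6 and 51.9 CPM with DMSO and 74.1 and 66.0 CPM with STM2457 at 3 days, a rise of 0.75 (SE 0.16; edgeR adjusted p = 0.00141). At 6 days it had 45.3 and 37.0 against 64.4 and 60.2 CPM, a rise of 0.60 (SE 0.16; edgeR adjusted p = 0.0121). The 2 control libraries at 3 days were far apart but both below the treated ones. In NGP the groups overlapped, at 18.7 and 19.5 against 14.8 and 19.4 CPM at 3 days and at 11.3 and 21.0 against 19.1 and 20.8 CPM at 6 days.

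The remaining 2 calls were in NGP at 6 days. MRPL16, a counterpart of bacterial L16 near the tRNA sites, had 20.1 and 31.8 against 38.3 and 47.4 CPM and rose by 0.72 (SE 0.21; edgeR adjusted p = 0.0169). MRPL51 had 38.4 and 41.6 against 54.0 and 53.7 CPM and rose by 0.43 (SE 0.14; edgeR adjusted p = 0.0354). In Kelly at 6 days MRPL51 had 92.2 and 88.1 against 92.6 and 88.0 CPM, with the groups overlapping. It shares 27.6% of its exon bases with NCAPD2 on the other strand.

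With 2 libraries a group, most of these calls depended on both being present; when 1 is left out, the lone sample is assumed to vary like the other groups. In NGP at 6 days MRPS6 and MRPL33 stayed called in all 4 refits that left out 1 of the libraries compared. MRPL51 in NGP (0.37 to 0.49) and MRPS2 (0.55 to 0.66) and MRPL33 (0.37 to 0.52) in Kelly at 6 days lost the call whichever library was left out. MRPL37 in Kelly (0.32 to 0.51) kept it only without STM2457 replicate 2, and MRPS34 (0.39 to 0.59) only without STM2457 replicate 1. MRPL37 (0.21 to 0.50) and MRPS33 (0.52 to 0.90) in NGP kept it only without DMSO replicate 1. MRPL16 (0.43 to 1.09) lost it without DMSO replicate 1 or STM2457 replicate 2. MRPL41 in Kelly lost it at 3 days without replicate 1 of DMSO (0.44) or of STM2457 (0.67), and at 6 days without DMSO replicate 2 or STM2457 replicate 1 (range 0.44 to 0.73). Its value at 3 days without DMSO replicate 2 was 1.16.

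On ERCC scaling all 5 Kelly calls at 6 days were lost: MRPL33 had 0.21, MRPL37 0.19, MRPL41 0.35, MRPS2 0.37 and MRPS34 0.26, with edgeR adjusted p between 0.233 and 0.452. MRPL37 (0.31, edgeR adjusted p = 0.119) and MRPL51 (0.39, adjusted p = 0.0934) lost their NGP calls at 6 days as well. MRPS6 (0.99), MRPL33 (0.86), MRPL16 (0.69) and MRPS33 (0.65) in NGP and MRPL41 in Kelly at 3 days (1.15) kept the call on that scale.

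Genes that work beside the mitochondrial ribosome were described as companion lists at 0 h. Of 5 ribosomal proteins with other names, at 3 and 6 days, 0 and 1 were called higher in Kelly against 0 and 2 in NGP, with medians of 0.17, 0.23, -0.05 and 0.38. That is 20% and 40% of this short list at 6 days, against 2.7% and 4.45% of all genes raised, and the medians of all genes were between 0.00 and 0.02. GADD45GIP1, a large-subunit protein also known from cell cycle work, rose by 0.43 (SE 0.10; edgeR adjusted p = 0.00235) in Kelly at 6 days and by 0.38 (SE 0.084; adjusted p = 0.00064) in NGP. AURKAIP1, the small-subunit protein also called mS38, rose by 0.66 (SE 0.13; edgeR adjusted p = 0.000178) in NGP at 6 days. Of 10 translation factors, only TUFM, the elongation factor, and MTIF2, the initiation factor, were called, both in NGP at 6 days: TUFM rose by 0.21 (SE 0.068; edgeR adjusted p = 0.0452) and MTIF2 fell by 0.52 (SE 0.17; adjusted p = 0.0468), 10% of the list in each direction against 4.45% and 3.55% of all genes. Among 26 assembly and rRNA-processing genes, NGRN, an rRNA-binding protein, rose by 0.47 (SE 0.14; edgeR adjusted p = 0.0204) in Kelly and by 0.38 (SE 0.11; adjusted p = 0.0138) in NGP at 6 days, the 1 call (3.85% of the list) in each line. None of 5 mitochondrial transcription genes was called in any of these 4 comparisons.

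Direct tests asked whether the STM2457 effect on a member changed with duration or differed between the lines. From 3 to 6 days, 1 of 77 members changed its effect in NGP (background 2.8% of genes called). That member was MRPL33, whose effect was 0.88 larger at 6 days (SE 0.21; edgeR adjusted p = 0.00356). Without replicate 2 of NGP DMSO at 3 days and 0 h, its value was 0.71 with an adjusted p of 0.0819. In Kelly 0 members changed with duration (background 0.788%), with 5 at an unadjusted p under 0.05 and 0 in DESeq2, which gave no adjusted p for 42 of the 77. Of all 16759 genes DESeq2 called 259 higher and 50 lower in that test. Between NGP and Kelly the effect differed for 0 members at 3 days (background 0.161%) and 0 at 6 days (background 1.75%). There, 3 and 6 members had an unadjusted p under 0.05, and DESeq2 called 0 and 2. Unadjusted p-values were not counted over all genes in these tests. Of all 17343 genes DESeq2 called 36 higher and 28 lower at 3 days, and 199 and 260 at 6 days. A rise called in 1 line alone, such as that of MRPS6 or MRPL41, was therefore not shown by edgeR to differ from the other line.

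After 6 h of actinomycin D in DMSO cells, the members spread widely, from messengers that nearly vanished to others that gained share. By edgeR with Benjamini-Hochberg adjustment, 24 of 77 members fell and 10 rose in Kelly at 3 days, and 20 fell and 9 rose at 6 days. In NGP 24 fell and 10 rose at 3 days, and 28 fell and 9 rose at 6 days. Members were called lower in 31.2, 26.0, 31.2 and 36.4% of cases, against 15.6, 13.3, 18.4 and 18.7% of all genes in the same order. Called higher were 14.5, 13.2, 19 and 18% of all genes, and in either direction 30.1, 26.5, 37.3 and 36.7%. The member medians were -0.16, -0.23, -0.03 and -0.18 on the log2 scale, against 0.00, 0.05, -0.01 and -0.05 for all genes tested. These values are relative to the typical transcript, since the scaling sets that transcript near 0.

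Of the members, 15 fell in all 4 DMSO comparisons and 4 rose in all 4, while 28 were called in none and 0 were called lower in 1 comparison and higher in another. As shares of the 77 these are 19.5, 5.19, 36.4 and 0%, against 8.94, 9.13, 43.5 and 0.796% of the 14314 genes tested in both lines. Kelly and NGP share no library, and the members' mean DMSO changes in the lines had a Pearson r of 0.787 and a Spearman rho of 0.845 across the 77 genes, which are not independent replicates; the same Pearson r over all 14314 genes tested in both lines was 0.436. The changes of 54 of 77 members had the same sign in all 4 comparisons, 34 below and 20 above 0, against 55.0% of all genes (28.2% below, 26.8% above). All genes were not matched to the members for level. By FPKM the median member exceeded 84.1% of genes in Kelly and 84.3% in NGP. Whether level plays a part in these gaps, or in the shares of calls above, was not tested. At 3 h the member medians were still 0.03 to 0.11 above 0 in DMSO. In group means, 28 and 31 members in Kelly and 26 and 32 in NGP at 3 and 6 days had a lower mean after each step, from 0 to 3 h and from 3 to 6 h. The steps were not tested, and they were not counted over all genes.

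**Figure D3:**
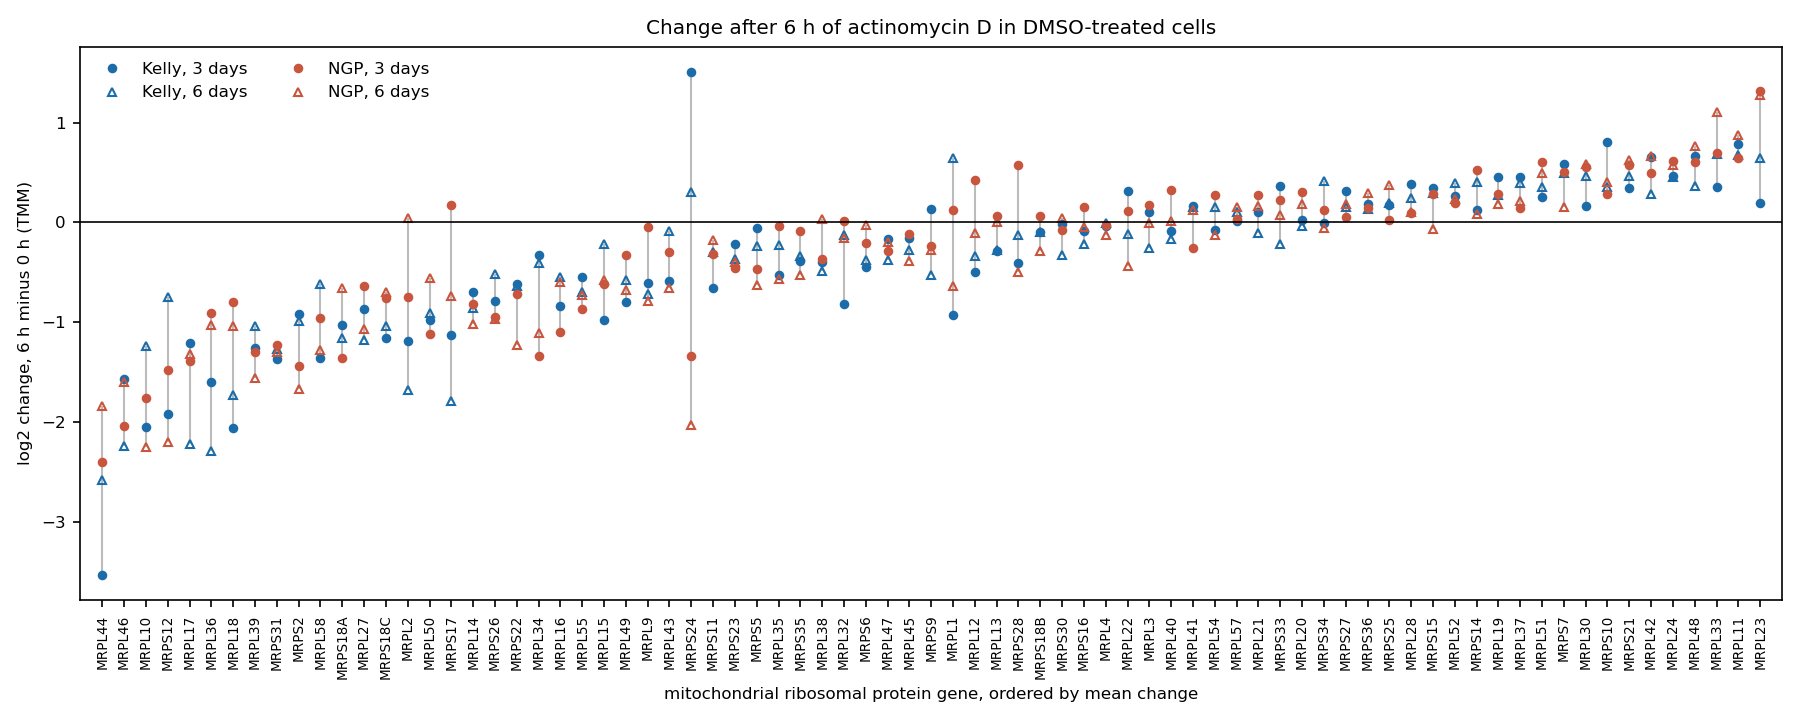
Actinomycin D change, 6 h minus 0 h, in DMSO cells (log2 units, TMM scaling) for the 77 tested members in order of their mean, with Kelly in blue, NGP in red, 3 days as filled circles and 6 days as open triangles; grey lines join the 4 comparisons of a member. MRPL44 stands lowest, with a mean of -2.59, and the widest range is that of MRPS24, a member with few counts.

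The 5 lowest members by mean change were MRPL44 (-2.59), MRPL46 (-1.87), MRPL10 (-1.83), MRPS12 (-1.59) and MRPL17 (-1.53). MRPL44 is a mitochondria-specific large-subunit protein with a fold related to RNase III (chromosome 2, 223957463 to 223967714). In Kelly at 3 days it had 41.2 and 37.1 CPM at 0 h, 14.9 and 18.7 CPM at 3 h and 3.31 and 3.44 CPM at 6 h. Each time point lay below the one before without overlap. The fall was 3.53 on the log2 scale (SE 0.34; edgeR adjusted p = 5.57e-19). In NGP at 6 days the course was 24.2 and 23.8, then 16.4 and 15.1, then 3.94 and 9.78 CPM, and the 6 h libraries differed from each other by more than the earlier ones did. In Kelly at 6 days MRPL44 fell by 2.58, and in NGP at 3 and 6 days it fell by 2.40 and 1.84; edgeR called each of them (adjusted p = 1.65e-12, 3.08e-10 and 3.05e-07). MRPL44 kept its call in all 4 DMSO comparisons whichever library was left out, as did MRPL46 and MRPL10.

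MRPL46, which shares its start region with MRPS11, fell by 1.57 and 2.24 in Kelly and by 2.04 and 1.61 in NGP at 3 and 6 days (edgeR adjusted p = 0.000588, 2.15e-06, 1.04e-05 and 0.000304). In NGP at 3 days it had 15.6 and 11.2 CPM at 0 h and 3.41 and 3.04 CPM at 6 h. Its partner MRPS11, a small-subunit platform protein, had smaller values of -0.66, -0.29, -0.32 and -0.18, of which only the first, in Kelly at 3 days, was called. These neighbouring genes, with annotated starts 63 bp apart, had different values, and the difference itself was not tested.

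MRPL10, which anchors the stalk of the large subunit, fell by 2.05 and 1.24 in Kelly and by 1.76 and 2.25 in NGP (edgeR adjusted p = 6.68e-13, 6.1e-06, 4.42e-11 and 4.34e-15). In NGP at 6 days it went from 64.0 and 63.9 CPM to 11.7 and 15.2 CPM, the groups far apart. MRPS12, the counterpart of bacterial S12 in the decoding centre, fell in 3 of the 4 comparisons (by 1.92, 1.48 and 2.20) and had -0.74 (SE 0.40; edgeR adjusted p = 0.171) in Kelly at 6 days. Its value in the 3-day Kelly cells moved, when 1 library was left out, between -3.17 (without 6 h replicate 1) and -1.26 (without 6 h replicate 2), with the call kept. Its NGP call at 3 days was lost without DMSO 6 h replicate 2 (lowest and highest value over the refits -2.19 and -1.05). MRPL17, another counterpart of a bacterial protein, fell by 2.22 in Kelly at 6 days and by 1.39 and 1.32 in NGP, and had -1.21 (SE 0.56; edgeR adjusted p = 0.0929) in Kelly at 3 days.

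At the other end, the 5 highest means were those of MRPL23 (0.86), MRPL11 (0.75), MRPL33 (0.71), MRPL48 (0.60) and MRPL24 (0.53). MRPL23 had few counts and was called in none of the 4. MRPL11, which forms the stalk base together with MRPL10, went from 75.03 and 78.7 CPM at 0 h to 138 and 127 CPM at 6 h in Kelly at 3 days. It rose by 0.78, 0.68, 0.65 and 0.87 (edgeR adjusted p = 8.05e-08, 5.27e-06, 0.000213 and 9.89e-07). In NGP at 3 days the call was lost without DMSO 6 h replicate 1, with 0.40 as the lowest value. The neighbours MRPL10 and MRPL11 of 1 protein complex therefore stood at opposite ends of the family's range.

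MRPL33 rose by 0.35, 0.68, 0.69 and 1.11 (edgeR adjusted p = 0.0314, 8.52e-06, 5.16e-05 and 1.24e-09). In NGP at 6 days it went from 34.2 and 35.98 CPM to 77.1 and 73.9 CPM, without overlap. In Kelly at 3 days the call was lost whichever library was left out (0.30 to 0.40). MRPL24, the counterpart of bacterial L24, rose by 0.47 and 0.46 in Kelly and by 0.61 and 0.58 in NGP, the Kelly calls being lost at 3 days without replicate 1 at 0 h or at 6 h, and at 6 days without 0 h replicate 1 or either 6 h library. MRPL48, a mitochondria-specific protein, rose by 0.66 in Kelly at 3 days and by 0.60 and 0.76 in NGP, and had 0.36 (SE 0.18; edgeR adjusted p = 0.141) in Kelly at 6 days. Its calls at 3 days were lost without 0 h replicate 1 in Kelly (lowest value 0.55) and without 6 h replicate 2 in NGP (lowest value 0.32).

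By class, large-subunit members were called lower 17, 14, 16 and 20 times among 50 and small-subunit members 7, 6, 8 and 8 times among 27. Members with a bacterial counterpart were called lower 15, 12, 15 and 15 times among 46, and mitochondria-specific members 9, 8, 9 and 13 times among 31. As shares, large-subunit members were called lower in 34, 28, 32 and 40% and small-subunit members in 25.9, 22.2, 29.6 and 29.6%, against 15.6, 13.3, 18.4 and 18.7% of all genes. Members with a bacterial counterpart had 32.6, 26.1, 32.6 and 32.6% and mitochondria-specific members 29, 25.8, 29 and 41.9%. The differences between classes were not tested. Of the 26 assembly and rRNA-processing genes, 11, 11, 13 and 13 were called lower and 1 higher each time, with medians of -0.70, -0.54, -0.58 and -0.61. That is 42.3, 42.3, 50 and 50% called lower and 3.85% called higher, against 14.5, 13.2, 19 and 18% of all genes called higher. Of the 10 translation factors, 1, 2, 2 and 4 were called lower (10, 20, 20 and 40%) and 2, 3, 4 and 1 higher (20, 30, 40 and 10%). Of the 5 transcription genes 1, 1, 4 and 1 were called lower (20, 20, 80 and 20%) and 0 higher. Of the 5 ribosomal proteins with other names, 0, 1, 0 and 1 were called lower and 1, 0, 1 and 3 higher, so that 1 gene is 20% of either list.

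Scaling to the ERCC spike-ins, synthetic RNAs added to the samples, changed the level of all these values, for the members and for other genes alike. The labels do not say at which step the spike-ins were added. They took 0.265 to 0.671% of fragments. On this scale the median member change over 6 h in DMSO was -0.60 and -1.50 for Kelly (3, then 6 days) and -0.84 and -1.23 for NGP, against -0.34, -1.18, -0.81 and -1.10 for all genes. Called lower were 44, 74, 62 and 70 of 77 members, and called higher 1, 0, 0 and 0. Of all genes, 4744, 10379, 8014 and 9830 were called lower and 521, 10, 34 and 46 higher. The genes tested were 16759 in Kelly and 14661 in NGP. MRPL11, MRPL24 and MRPL33, which gained share on TMM scaling, had values below 0 in 3 of the 4 comparisons each on the spike-in scale. MRPL33 had -0.08, -0.59 and -0.11 in Kelly at 3 and 6 days and NGP at 3 days, and MRPL11 had -0.60, -0.15 and -0.18 in Kelly at 6 days and NGP at 3 and 6 days. For STM2457 at 0 h, the spike-in scale moved the member medians to 0.37, -0.23, 0.11 and 0.05 and the medians of all genes to 0.38, -0.21, 0.10 and -0.02.

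**Figure D4:**
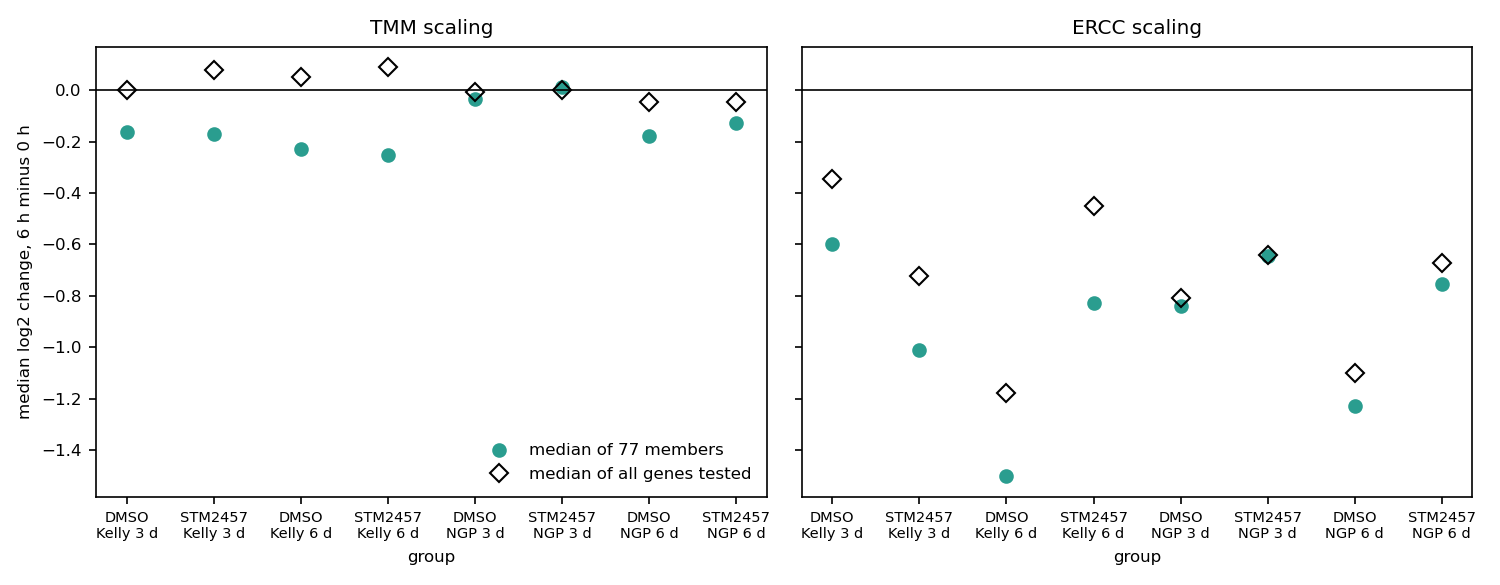
Median log2 change from 0 to 6 h of actinomycin D of the 77 members (filled circles) and of all genes tested (open diamonds) in each line, treatment and duration, on TMM scaling (left) and on ERCC spike-in scaling (right). Members and all genes move down together on the spike-in scale, for example to -1.50 and -1.18 in Kelly DMSO at 6 days.

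In STM2457 cells the actinomycin D changes covered the same range. In Kelly 21 members fell and 9 rose at 3 days (background 14% lower, 12.8% higher), and 18 fell and 12 rose at 6 days (14% and 12.4%). In NGP 12 fell and 15 rose at 3 days (15.9% and 16.6%), and 24 fell and 10 rose at 6 days (16.4% and 15.7%), all by edgeR with Benjamini-Hochberg adjustment. In either direction 26.9, 26.4, 32.5 and 32.1% of all genes were called. The medians were -0.17, -0.25, 0.01 and -0.13 against 0.08, 0.09, 0.00 and -0.05 for all genes. MRPL44 again fell in each of the 4 comparisons, by 2.21, 2.19, 1.40 and 1.67.

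Of the 15 members that fell in all 4 DMSO comparisons, 7 also fell in all 4 STM2457 comparisons: MRPL10, MRPL18, MRPL39, MRPL44, MRPL50, MRPS22 and MRPS31. MRPL46 and MRPS2 fell in 3 of them, MRPL16 and MRPS26 in 2, MRPL36 and MRPS18A in 1, and MRPL14 and MRPL27 in 0. Since the list was chosen on its DMSO calls, fewer calls elsewhere can follow from the choice alone, and the difference has to be tested directly. That test is the decay difference, the 6 h minus 0 h change in STM2457 less the same change in DMSO. It shares its 0 h libraries with the STM2457 effect above, and its DMSO libraries with the DMSO changes, so these results are not independent of each other.

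By edgeR, the decay difference was called for 0 members in Kelly at 3 days (background 0.221% of genes, 0.197% higher and 0.0239% lower) and 0 at 6 days (background 0.424%, 0.149% higher and 0.274% lower). There, 8 and 5 members had an unadjusted p under 0.05, which was not counted over all genes. DESeq2 called 0 and 0 members, without an adjusted p for 39 members at 6 days. Of all 16759 genes it called 60 higher and 36 lower at 3 days, and 69 and 110 at 6 days. In NGP 1 member had a higher value with STM2457 at 3 days (background 0.703%, 0.457% higher and 0.246% lower) and 3 had at 6 days (background 2.54%, 1.36% higher and 1.18% lower). For NGP, DESeq2 called 1 member higher and 0 lower at 3 days, and 3 higher and 2 lower at 6 days. Of all 14661 genes it called 110 and 57, then 250 and 343. Without the filter on low counts, edgeR called 2 higher and 1 lower at 6 days, against 214 and 206 of 18304 genes. The member medians were 0.06, 0.07, 0.10 and 0.11, against 0.02, 0.01, -0.00 and -0.02 for all genes. A positive value means that, relative to the typical transcript, more of the messenger was left from 0 to 6 h in STM2457 cells than in DMSO cells. It does not give the absolute amount left, since the scaling sets the typical transcript near 0.

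MRPS2 was the member called at both durations in NGP. At 6 days DMSO cells went from 43.1 and 51.9 CPM at 0 h through 34.1 and 36.3 CPM at 3 h to 14.6 and 15.1 CPM at 6 h. STM2457 cells went from 57.6 and 51.1 through 52.5 and 64.2 to 34.6 and 38.1 CPM. The treatments overlapped at 0 h and were far apart at 6 h, and the decay difference was 1.09 (SE 0.27; edgeR adjusted p = 0.0075, Benjamini-Hochberg).

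At 3 days in NGP, MRPS2 in DMSO cells went from 45.5 and 37.0 CPM through 35.6 and 25.6 CPM to 17.6 and 12.5 CPM. In STM2457 cells it went from 49.6 and 57.0 through 54.6 and 56.5 to 35.8 and 46.9 CPM. The decay difference was 1.08 (SE 0.27; edgeR adjusted p = 0.0277). Its 6 h change was thus -1.44 and -1.68 in DMSO at 3 and 6 days, and -0.37 and -0.58 in STM2457. In Kelly the changes were -0.92 and -0.99 in DMSO and -0.58 and -1.04 in STM2457, giving decay differences of 0.34 (SE 0.25) and -0.05 (SE 0.26) that were not called. At 6 days the NGP call was lost only without DMSO 0 h replicate 2 (0.95, adjusted p = 0.0539). At 3 days it was lost without DMSO 0 h replicate 1 (0.92), DMSO 6 h replicate 2 (0.86), STM2457 0 h replicate 1 (0.98) or STM2457 6 h replicate 2 (0.87).

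MRPL14, a counterpart of bacterial L14 at the interface of the subunits (chromosome 6, 44113451 to 44127452), was called in NGP at 6 days. DMSO cells had 21.0 and 22.2 CPM at 0 h, 20.4 and 22.5 CPM at 3 h and 9.38 and 12.02 CPM at 6 h. STM2457 cells had 23.0 and 19.6, then 37.5 and 29.8, then 21.6 and 25.3 CPM. Only the DMSO libraries at 6 h lay below their 0 h level. The decay difference was 1.15 (SE 0.34; edgeR adjusted p = 0.0498).

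In the other comparisons the decay difference of MRPL14 was 0.68 and 0.67 in Kelly and 0.88 in NGP at 3 days, with edgeR adjusted p of 0.514, 0.491 and 0.337. The change from 0 to 6 h was -0.70, -0.86, -0.82 and -1.02 in DMSO, all called, and -0.01, -0.19, 0.06 and 0.13 in STM2457, none called. The sign of the difference was thus positive in all 4, while 1 was called. The DMSO calls themselves were lost without 0 h replicate 1 in Kelly at 3 days (-0.55), 6 h replicate 2 in Kelly at 6 days (-0.62), and 0 h or 6 h replicate 2 in NGP at 3 days (-0.56 as the value nearest 0). Leaving out 1 of 8 libraries ended the call on the decay difference in NGP at 6 days in 6 refits (range 0.98 to 1.33), all but those without DMSO 6 h replicate 2 or STM2457 6 h replicate 1. With RLE size factors its adjusted p was 0.0564.

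MRPL27, a counterpart of bacterial L27 near the peptidyl transferase centre (chromosome 17, 50367857 to 50373207), was the third call. In NGP at 6 days DMSO cells had 37.2 and 41.8 CPM at 0 h, 33.6 and 31.4 CPM at 3 h and 20 and 17.5 CPM at 6 h. STM2457 cells had 51.6 and 43.3, then 45.3 and 41.5, then 37.1 and 47.0 CPM. The 6 h groups were apart by more than the 0 h groups, with a decay difference of 0.89 (SE 0.26; edgeR adjusted p = 0.0399). In Kelly the differences were 0.33 and 0.76 and in NGP at 3 days 0.43, none of them called. The call was lost without replicate 2 of any of the 4 groups compared (0.81, 0.80, 0.77 and 0.71).

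**Figure D5:**
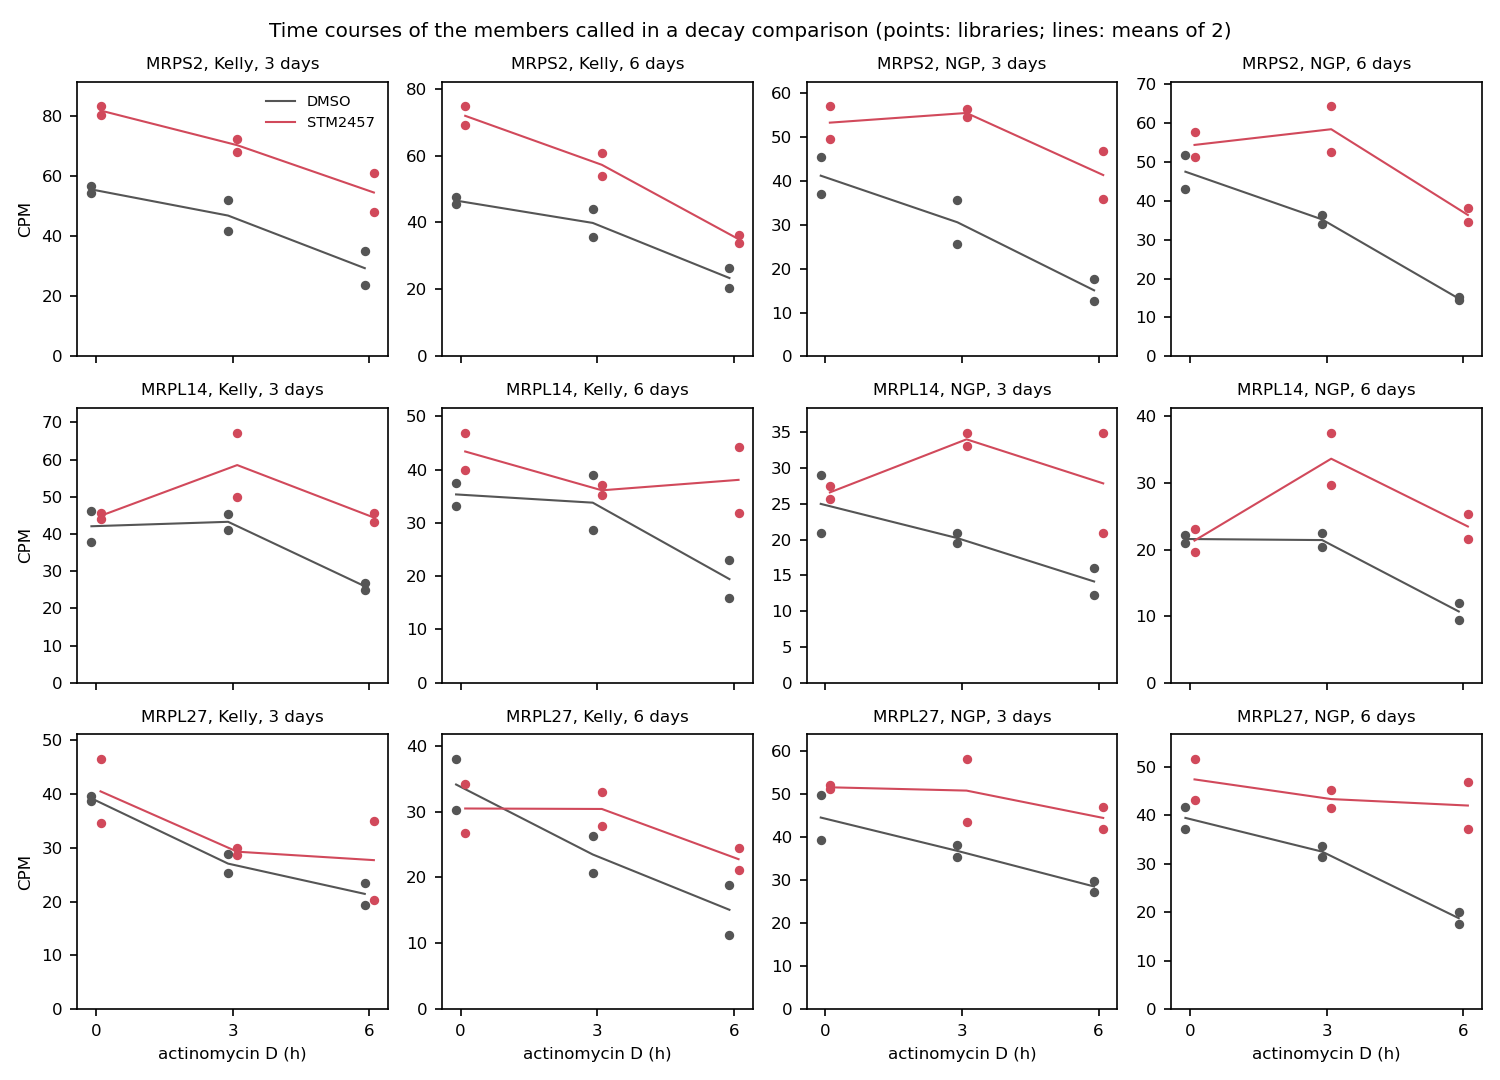
CPM over 0, 3 and 6 h of actinomycin D for MRPS2, MRPL14 and MRPL27 in each line and duration, with DMSO in grey and STM2457 in red; points are single libraries and lines join means of 2. MRPS2 in NGP at 6 days ends at 14.6 and 15.1 CPM in DMSO and at 34.6 and 38.1 CPM in STM2457.

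On ERCC scaling the decay difference medians were -0.34 and 0.77 in Kelly and 0.24 and 0.54 in NGP at 3 and 6 days, against -0.37, 0.70, 0.14 and 0.41 for all genes. The level of the whole transcriptome therefore moved with the scaling, and with it the sign in Kelly at 3 days, while the members' median lay above that of all genes in each of the 4.

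Between the lines, the DMSO actinomycin D change differed for 2 members at 3 days (background 1.59% of genes called) and 1 at 6 days (background 4.25%) in the joint edgeR fit of both lines. MRPL18, a large-subunit protein that binds the 5S rRNA in bacteria, went from 54.0 and 55.4 to 8.28 and 17.9 CPM in Kelly at 3 days. In NGP it went from 43.2 and 37.4 to 23.7 and 22.7 CPM, a smaller loss by 1.28 (SE 0.35; adjusted p = 0.0387, edgeR). MRPL32, whose processing by the m-AAA protease controls ribosome assembly, went from 76.1 and 77.7 to 47.9 and 39.1 CPM in Kelly. In NGP it had 56.6 and 46.8 at 0 h and 49.2 and 55.6 CPM at 6 h, overlapping, a difference of 0.85 (SE 0.24; edgeR adjusted p = 0.0431).

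MRPL1, of the large subunit's L1 stalk, differed the other way at 6 days. It had 13.2 and 12.6 CPM at 0 h and 18.2 and 22.2 CPM at 6 h in Kelly, and 19.1 and 17.99 against 12.4 and 11.4 CPM in NGP, a difference of -1.25 (SE 0.39; edgeR adjusted p = 0.0492). None of these 3 was firm: leaving out 1 of 8 libraries ended the call in 7, 6 and 8 refits for MRPL18, MRPL32 and MRPL1. RLE size factors also ended it for MRPL18 (adjusted p = 0.0699) and MRPL32 (0.0888), and the replicate block for MRPL1 (0.056).

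The members' messengers are short. In the canonical transcripts of GENCODE 44, the 77 tested members had a median length of 1260 bases and 5 exons, against 3410 bases and 9 exons for 13973 genes tested in both lines. The density of GGACT was alike, at 0.91 and 0.933 per kb, but 28.6% of members had no GGACT at all, against 8.43% of all genes. MRPS2 and MRPL27, which had a called decay difference, have 0 copies, and MRPL14 has 2. Of the 5 members with the lowest mean change, MRPL44 and MRPL10 have 3 copies each, MRPL46 has 0, MRPS12 has 0 and MRPL17 has 2. Of the 4 called higher in all 4 DMSO comparisons, MRPL11, MRPL24 and MRPL33 have 0 copies and MRPL42 has 9, in an annotated transcript of 15557 bases. MRPL48 and MRPL23, also among the 5 highest means, have 3 and 1. A letter match is not a measured m6A site.

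Across the 77 members, the mean DMSO change from 0 to 6 h had Pearson correlations of 0.192 with transcript length, 0.135 with exon number, 0.0623 with GGACT density and -0.06 with GC content. The Spearman values were 0.0702, 0.123, 0.0555 and -0.0858. Over all 13973 genes the Pearson values were 0.0867, 0.235, -0.0506 and -0.0736. Genes are not independent replicates, and none of these features ordered the members by their loss.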

How the data were processed

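Poly(A) RNA-seq was analysed from 48 libraries. Each deposited table holds raw counts of fragments, which the authors obtained by running featureCounts 1.5.3 over exons, grouped by gene name, with the protein-coding annotation of GENCODE 33 plus ERCC spike-ins, per the file headers. No setting for strand, multi-mapped reads or overlapping genes appears there. The submitters' processing notes list GRCh38 (hg38) as build, and as tools Subread 1.5.3, HISAT2 2.1.0, Trimmomatic 0.36 and FastQC 0.11.5. The labels' protocols describe TRIzol RNA, poly(A) selection on beads and a SMART cDNA kit.

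Counts were tested with edgeR 4.0.16 (limma 3.58.1, R 4.3.3): quasi-likelihood test, TMM scaling, filterByExpr by group (minimum count 10, minimum total 15), 1 fit of 24 libraries per line and a joint fit of 48 (17343 genes) for differences between lines. Benjamini-Hochberg adjustment ran over all genes of a comparison, with a threshold of 0.05. An SE is the size of the log2 change over the root of F. CPM use TMM-scaled library sizes, and FPKM also the exon length in the files. Only the STM2457 comparison at 0 h and 3 days was run, in each line, on simulated counts with known changes. Those counts were drawn with the spread of the fit itself, and the other comparisons were not simulated. No libraries of a group were alike within sampling noise.

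The members and lists were chosen with earlier results of these data known. Members were named by rule: the 3 largest called changes per 0 h comparison, the 5 highest and 5 lowest mean changes after actinomycin D in DMSO, up to 5 called decay differences, up to 2 called members per difference between durations or lines, the 5 highest and 3 lowest FPKM per line, and up to 2 called genes per 0 h comparison and list (each subunit, bacterial or mitochondria-specific origin, and the companion lists). MRPS11, MRPL42, MRPS9, MRPL1 at 0 h, MRPL37 in NGP and the members listed as called in all 4 comparisons were named after their values were seen. Alternatives were RLE size factors, ERCC scaling, no filter, DESeq2 1.42.0, the replicate number as a block, and leaving out each library.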

Additional observations from a re-analysis of the deposited data

Results flagged for a closer look

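4 results were singled out because a direct edgeR test with Benjamini-Hochberg adjustment found an effect to differ between durations or lines. The STM2457 effect on MRPL33 in NGP was 0.88 larger on the log2 scale at 6 days than at 3 days. After 6 h of actinomycin D in DMSO at 3 days, the change was 1.28 higher in NGP than in Kelly for MRPL18 and 0.85 higher for MRPL32. For MRPL1 at 6 days the difference between NGP and Kelly was -1.25. Each rests on groups of 2 libraries, and each was lost in at least 1 refit that left out a library. With 2 libraries a group, no single library could be checked against the others of its group.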

How the results depend on the processing

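Scaling to the ERCC spike-ins changed many counts of called members. At 0 h it gave 20 calls, all higher, in Kelly at 3 days, 2, both lower, at 6 days, and 1 and 4 higher in NGP. Of all 16759 genes in Kelly it called 3694 higher at 3 days and 1071 lower at 6 days. Of all 14661 genes in NGP it called 418 and 462 higher. For actinomycin D it gave 74, 62 and 70 calls in DMSO (Kelly 6 days, NGP 3 and 6 days) and 65, 47, 52 and 55 in STM2457 (Kelly 3 and 6 days, NGP 3 and 6 days). Of all genes it called 10379, 8014 and 9830 lower in these DMSO comparisons. In STM2457 it called 8312, 6056, 6938 and 6797 of all genes lower. The decay difference had 12, 42, 3 and 19 calls, the change with duration in Kelly 24, the STM2457 effect between lines 2 and 3, and the actinomycin D change between lines 7 and 4. Over all genes the decay difference had 43 calls higher and 2375 lower in Kelly at 3 days, and 5013 and 20 at 6 days. In NGP it had 154 and 4, then 2564 and 28. The change with duration in Kelly had 7 and 4002. Between lines the STM2457 effect had 13 and 631, then 393 and 95. The actinomycin D change had 57 and 1219, then 1208 and 194. On this scale 40 named values changed sign, all of them rises after actinomycin D. In Kelly DMSO at 3 days it was MRPL33, at -0.084, and at 6 days they were MRPL11 -0.60, MRPL24 -0.82, MRPL33 -0.59, MRPL37 -0.88, MRPL51 -0.92, MRPS21 -0.81 and MRPS34 -0.86. In NGP DMSO at 3 days they were MRPL11 -0.15, MRPL24 -0.19, MRPL33 -0.11, MRPL48 -0.20, MRPL51 -0.19 and MRPS21 -0.22, and at 6 days MRPL11 -0.18, MRPL24 -0.48, MRPL48 -0.29, MRPL51 -0.56 and MRPS21 -0.43. In Kelly STM2457 at 3 days they were MRPL11 -0.45, MRPL33 -0.38, MRPL37 -0.47, MRPL41 -0.42, MRPL48 -0.24 and MRPS33 -0.24, and at 6 days MRPL33 -0.14, MRPL37 -0.031, MRPL48 -0.087 and MRPS34 -0.20. In NGP STM2457 at 3 days they were MRPL24 -0.22, MRPL48 -0.065, MRPL51 -0.19, MRPS21 -0.22, MRPS33 -0.089 and MRPS34 -0.25, and at 6 days MRPL11 -0.094, MRPL24 -0.30, MRPL33 -0.17, MRPL37 -0.29 and MRPL51 -0.29. A further 22 named values lost their call and 84 kept direction and call. The labels do not say when the spike-ins were added, and the cause was not tested.

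DESeq2 called 4 and 8 members at 0 h in Kelly at 3 and 6 days, 1 of them lower each time, 5 for the decay difference in NGP at 6 days, 2 for the STM2457 effect between lines at 6 days and 2 for the actinomycin D change between lines at 6 days. RLE size factors left 0 calls for that change at 3 days, and no filter on low counts left 0 at 6 days. Over all genes RLE size factors called 106 higher and 88 lower there, and no filter 491 and 357. DESeq2 called 250 higher and 343 lower for the decay difference in NGP at 6 days. Between lines at 6 days it called 199 and 260 for the STM2457 effect and 555 and 465 for the actinomycin D change. Among the 146 named values, DESeq2 kept 145 and RLE size factors 142; all the others lost their call with the same direction. The cause was not tested.

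The replicate number did not pair the libraries: replicate differences correlated between -0.0289 and 0.0288 over all pairs of groups. With the replicate block 2 members were called for the decay difference in NGP at 3 days and 0 for the actinomycin D change between lines at 6 days, and of the named values 145 kept and 1 lost its call. In the same order that setting called 75 of all genes higher and 37 lower, then 443 and 297.

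Leaving out 1 library at a time gave 0 to 1, 0 to 2, 0 to 0 and 2 to 4 calls at 0 h (Kelly 3 and 6 days, NGP 3 and 6 days). For actinomycin D in the same order it gave 25 to 29, 18 to 27, 28 to 30 and 27 to 32 in DMSO and 20 to 22, 20 to 25, 20 to 26 and 22 to 27 in STM2457. The decay difference had 0 to 1, 0 to 0, 0 to 4 and 0 to 4 calls. The change with duration had 0 to 0 in Kelly and 0 to 2 in NGP, the STM2457 effect between lines 0 to 0 at both durations, and the actinomycin D change between lines 0 to 1 at both.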
